A study of Mus musculus with 3 samples.

Results

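The genes described here encode the nuclear subunits of the mitochondrial respiratory chain and of ATP synthase. They were chosen by symbol, as the protein-coding genes of the mm9 GENCODE annotation whose names begin with Nduf, Uqcr, Atp5 or Cox4 to Cox8. The rule gave 88 gene records with 87 symbols (Ndufb8 had 2 overlapping records) of 22350 protein-coding records on the 20 chromosomes that carried regions. Of these, 81 were subunits, 4 were complex I assembly factors (Ndufaf1 to Ndufaf4) and 3 carried a matching symbol without being a subunit (Cox4nb, Atp5sl and Atp5l-ps1). Runx3 binding and monomethylation of histone H3 at lysine 4 (H3K4me1) were mapped by ChIP-seq in freshly isolated, resting natural killer (NK) cells from spleens of ICR mice, with 1 sample per antibody and 1 non-immune serum (NIS) control. The 3 samples came from the same strain and state, and no mutant or treated sample was among them. The labels give NKp46 and the study's methods give DX5 as the sorting marker, and the lists do not settle which was used. The data were 2 lists of enriched regions, 15524 for Runx3 and 49902 for H3K4me1, holding coordinates only. The read depth at a region is therefore unknown, and there is no spread between replicates.

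The respiratory chain passes electrons from NADH and succinate to oxygen through complexes I to IV, and complex V (ATP synthase) uses the resulting proton gradient to make ATP. Nearly all subunits are encoded in the nucleus and are made in most cells, whereas a few complex IV subunits exist as isoforms restricted to muscle, lung or testis. Runx3 is a transcription factor of cytotoxic lymphocytes, and H3K4me1 marks enhancers and the flanks of active promoters.

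As a check of the cell type, all 9 NK cell marker genes examined (among them Ncr1, Klrb1c and Prf1) had a Runx3 region within 5 kb, as did 1 of 5 T cell, 3 of 5 B cell and 1 of 5 myeloid marker genes. Within 1 kb of the gene start the counts were 8 of 9 for NK cells and 0 of 5 for each of the other lists. Of all protein-coding genes, 39.8% had a Runx3 region within 5 kb and 25.8% within 1 kb of the start. The lists are short, and the study itself had displayed Runx3 at Ncr1 and Klrb1 genes in NK cells. For those genes the check is not independent.

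Runx3 lay near the start of 51.1% of the respiratory genes, and H3K4me1 near the start of 95.5%. A Runx3 region was found within 5 kb of 54 of the 88 genes (61.4%, 95% Wilson interval 50.9 to 70.9%), against 39.8% of all protein-coding genes. Within 1 kb of the start there was a region at 45 genes (51.1%, interval 40.9 to 61.3%), against 25.8% of all genes. At 42 genes (47.7%) it covered the start base itself, against 21.4%. For H3K4me1, 84 genes (95.5%, interval 88.9 to 98.2%) had a region within 5 kb and also within 1 kb of the start, against 67.7% and 56.8% of all genes. The H3K4me1 region covered the start base at 53 genes (60.2%, interval 49.8 to 69.8%), against 34.5%. The intervals cover counting error over genes only, and the genes were chosen with results of these data known, so no test was made.

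Base composition of the starts differed in the same direction as the Runx3 shares. A start was called CpG-rich when the surrounding 1000 bp had at least 50% GC and an observed to expected CpG ratio of at least 0.6. Of the respiratory genes, 66 (75%) had such a start, against 44.2% of all genes. Among genes with a CpG-rich start, Runx3 lay within 1 kb at 37 of 66 respiratory genes (56.1%, interval 44.1 to 67.4%), against 46.3% of all such genes. The difference from the other protein-coding genes was 25.4 percentage points over all starts (95% interval 15.1 to 35.6) and 9.86 points over CpG-rich starts (interval -2.16 to 21.2, which includes 0). For the 5 kb window the corresponding differences were 21.7 points (interval 11.2 to 31.2) and 5.24 points (interval -6.81 to 15.5). H3K4me1 covered the start base at 37 of the 66 CpG-rich respiratory starts (56.1%), against 47.8% of all CpG-rich starts. The part of CpG content in the binding was not tested.

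Sequences are shown for the 6 genes in which a RUNX consensus before the start lay closest to the midpoint of a Runx3 region over the start, because they show where the consensus stood relative to the gene. The consensus was searched on both strands in 4 forms. These were TGTGGT, its variant TGTGGC, and the forms with a CpG, which were TGCGGT and the variant TGCGGC. Each stretch is mm9 sequence read 5′ to 3′ along the gene and ends at or before the base preceding the start, with the match in capitals. The stretch of Ndufa7 begins at the match because an annotated exon of its neighbour Rps28 lies just before it.

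Ndufs6 (complex I accessory subunit), minus strand, chr13:73466000-73466085: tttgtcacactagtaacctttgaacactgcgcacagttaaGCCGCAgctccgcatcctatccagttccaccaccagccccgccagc
Ndufb10 (complex I accessory subunit), minus strand, chr17:24861424-24861495: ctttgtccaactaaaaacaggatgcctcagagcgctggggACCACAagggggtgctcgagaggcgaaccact
Ndufa7 (complex I accessory subunit), plus strand, chr17:33961508-33961535: ACCGCAcgcggtacccaggaatcctcgg
Atp5e (ε subunit of ATP synthase), minus strand, chr2:174289666-174289751: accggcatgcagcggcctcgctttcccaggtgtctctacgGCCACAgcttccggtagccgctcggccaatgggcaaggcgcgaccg
Ndufa3 (complex I accessory subunit), plus strand, chr7:3568913-3568974: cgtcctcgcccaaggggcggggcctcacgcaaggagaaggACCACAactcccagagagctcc
Atp5g2 (c subunit of ATP synthase), minus strand, chr15:102501548-102501633: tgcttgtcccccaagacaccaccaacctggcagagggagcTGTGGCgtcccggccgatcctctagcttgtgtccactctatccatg

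The first base of the match lay 55 bp before the start in Ndufs6, 32 bp in Ndufb10, 28 bp in Ndufa7, 105 bp in Atp5e, 22 bp in Ndufa3 and 115 bp in Atp5g2. Its distance from the midpoint of the Runx3 region was 6 bp in Ndufs6 and 48 bp in Atp5g2, and the other 4 genes fell between. In 5 of the 6 genes the consensus read in the direction opposite to the gene, and in Atp5g2 in the same direction. Since the list was chosen for closeness of the match, these distances describe the examples and not the group.

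**Figure D1:**
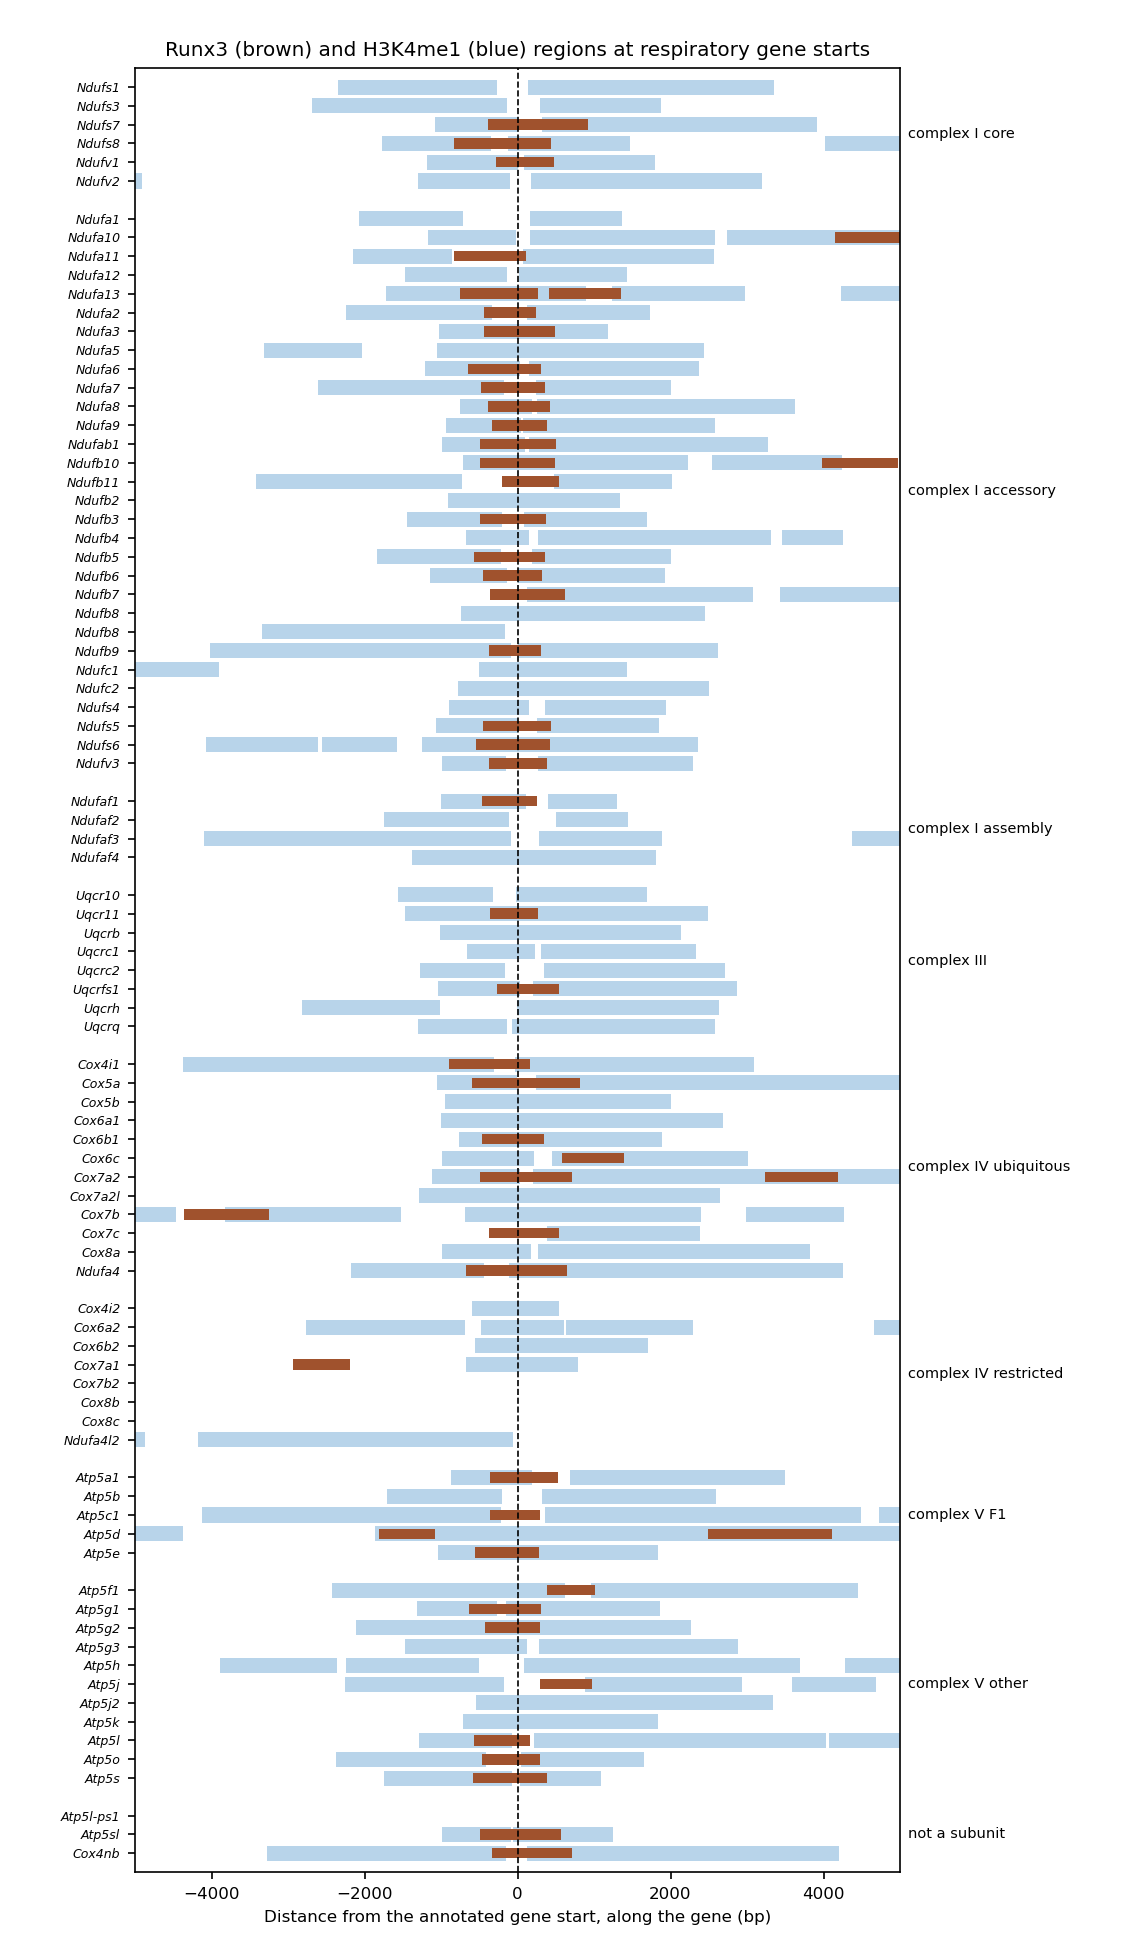
Runx3 regions (brown) and H3K4me1 regions (blue) around the annotated start of 87 of the 88 gene records, in bp along the direction of transcription and grouped by role, with the start as a dashed line. Brown bars sit on the start in 41 of the rows, the blue bars often break at the start, and the complex IV restricted isoforms have 0 brown bars within 1 kb.

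Complex I, which oxidises NADH, was taken as core subunits, accessory subunits and assembly factors. Of the 7 core genes, 4 had Runx3 within 1 kb of the start (57.1%, interval 25 to 84.2%) and 5 within 5 kb. The widest region over a core gene start was that of Ndufs7, which carries an iron-sulphur centre. It measured 1308 bp (chr10:79711484-79712791), had its midpoint 272 bp after the start and held 7 RUNX matches. Ndufs8, the neighbouring iron-sulphur subunit in the electron path, had a region of 1275 bp centred 198 bp before its start. Ndufv1, the NADH-binding subunit, had a region of 753 bp over its start.

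Ndufs1, the largest core subunit, and Ndufs3 were the core genes with no Runx3 region within 5 kb. Both had H3K4me1 on either side of the start with the start base free. Both also had the start of an opposite-strand gene within 1 kb (Eef1b2 and Kbtbd4). Ndufv2 had 2 Runx3 regions downstream, nearer to the start of Ankrd12, and none within 1 kb of its own start.

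Accessory subunits had Runx3 within 1 kb at 19 of 30 records (63.3%, interval 45.5 to 78.1%). The widest region over an accessory start belonged to Ndufa13, also known as GRIM-19, at 1016 bp, and a second region of 944 bp lay 883 bp after the same start, nearer to the start of Tssk6. H3K4me1 lay within 1 kb at all 30 records and over the start base at 16. Of the 4 assembly factors, Ndufaf1 was the only one with Runx3 within 5 kb, with a region of 718 bp centred 108 bp before the start, while all 4 had H3K4me1 within 1 kb.

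Complex III, which passes electrons from ubiquinol to cytochrome c, was taken as its Uqcr genes only. Cytochrome c1 is counted below with the other genes of the pathway. Runx3 lay within 1 kb at 2 of the 8 genes (25%, interval 7.15 to 59.1%) and H3K4me1 over the start base at 7 of 8. The 2 genes were Uqcrfs1, the Rieske iron-sulphur protein, with a region of 813 bp, and Uqcr11, with a region of 629 bp over its start. Uqcr11 had 2 further regions within 5 kb, of 662 bp and 436 bp, both nearer to the start of Mbd3. The core proteins Uqcrc1 and Uqcrc2 had none within 5 kb. The interval of complex III overlapped those of the other complexes, so its lower share cannot be told apart from theirs at this number of genes.

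Complex IV, the cytochrome c oxidase that reduces oxygen, offered a comparison of ubiquitous subunits with their tissue-restricted isoforms. Of 12 ubiquitous genes (Ndufa4 included), 7 had Runx3 within 1 kb (58.3%, interval 32 to 80.7%) and 10 had H3K4me1 over the start base. Of the 8 restricted isoforms, 0 had Runx3 within 1 kb (interval 0 to 32.4%), 1 had it within 5 kb and 4 had H3K4me1 over the start base. None of the 8 restricted isoforms had a CpG-rich start. Of the 5770 protein-coding genes with Runx3 within 1 kb, 4573 had a CpG-rich start, as did 9883 of all 22350. Genes without such a start therefore carried Runx3 less often, and its part in the 0 of 8 was not tested.

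Pair by pair, Cox4i1 had a Runx3 region of 1053 bp over its start, shared with the divergent Cox4nb, and the lung isoform Cox4i2 had 0. Cox6b1 had a region of 804 bp over its start, and the testis isoform Cox6b2 had 0. Cox7a2 had a region of 1207 bp over its start and a second of 954 bp in an intron. Its muscle counterpart Cox7a1 had 1 region of 751 bp centred 2560 bp upstream of the start, and that region overlapped no H3K4me1. Ndufa4 had a region of 1321 bp centred 12 bp before its start, and the hypoxia-linked Ndufa4l2 had 0. The remaining pairs had no Runx3 within 1 kb in either partner. They were Cox6a1 with the muscle isoform Cox6a2, Cox7b with the testis isoform Cox7b2, and Cox8a with the muscle isoform Cox8b and the testis isoform Cox8c. Cox6a1 had 1 region downstream, 46 bp from the start of Gatc. Cox7b had 1 region 11 bp from the start of Magt1 and 1 region 48 bp from that of Atp7a.

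H3K4me1 was nonetheless seen at restricted isoforms. It covered the start of Cox4i2 (1133 bp), Cox6a2 (1087 bp), Cox6b2 (2263 bp) and Cox7a1 (1462 bp), and at Ndufa4l2 it lay on the upstream side. Cox7b2, Cox8b and Cox8c had neither Runx3 nor H3K4me1 within 5 kb. Together with Atp5l-ps1, a record of 0.312 kb named as a pseudogene, these were the 4 records of the 88 with no region of either list. There were 0 genes with Runx3 and no H3K4me1 within 5 kb.

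The widest Runx3 region over any respiratory gene start was at Cox5a, the ubiquitous subunit 5A. It measured 1419 bp (chr9:57368441-57369859), had its midpoint 111 bp after the start and held 10 RUNX matches.

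In complex V, the catalytic F1 part had Runx3 within 5 kb at all 5 genes and within 1 kb at 3. The widest over a start was at Atp5a1, the α subunit, with 897 bp centred 85 bp after the start. Atp5c1, the γ subunit, had 656 bp and Atp5e, the ε subunit, 842 bp. Atp5b, the β subunit, had none at its start and 2 downstream, centred 9005 bp and 11434 bp after it. Atp5d, the δ subunit, had 4 regions and none within 1 kb of its start. Their midpoints lay 1441 bp before the start and 3302, 10282 and 11051 bp after it. The one at 3302 bp was nearer to the start of Dos, and the last 2 to that of Midn. An H3K4me1 region of 11751 bp ran across the Atp5d start, the second widest at any respiratory gene. The widest, 12987 bp, lay downstream of Atp5h, and the third, 9391 bp, downstream of Ndufa6, and neither covered the start of its gene.

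Of the 11 other complex V genes, which build the membrane part and the stalk, 7 had Runx3 within 1 kb (63.6%, interval 35.4 to 84.8%). The widest over a start was at Atp5s, also called factor B, at 974 bp. Atp5o, the stalk subunit OSCP, was listed with 10 Runx3 regions. Its gene record spans 247 kb because of a putative read-through transcript, and the main transcript of 6.47 kb had 1 region within 5 kb. That region, of 767 bp, covered the start. Of the other 9, 7 lay nearest to the start of Itsn1, 1 to that of Cryzl1 and 1 to that of Donson.

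**Figure D2:**
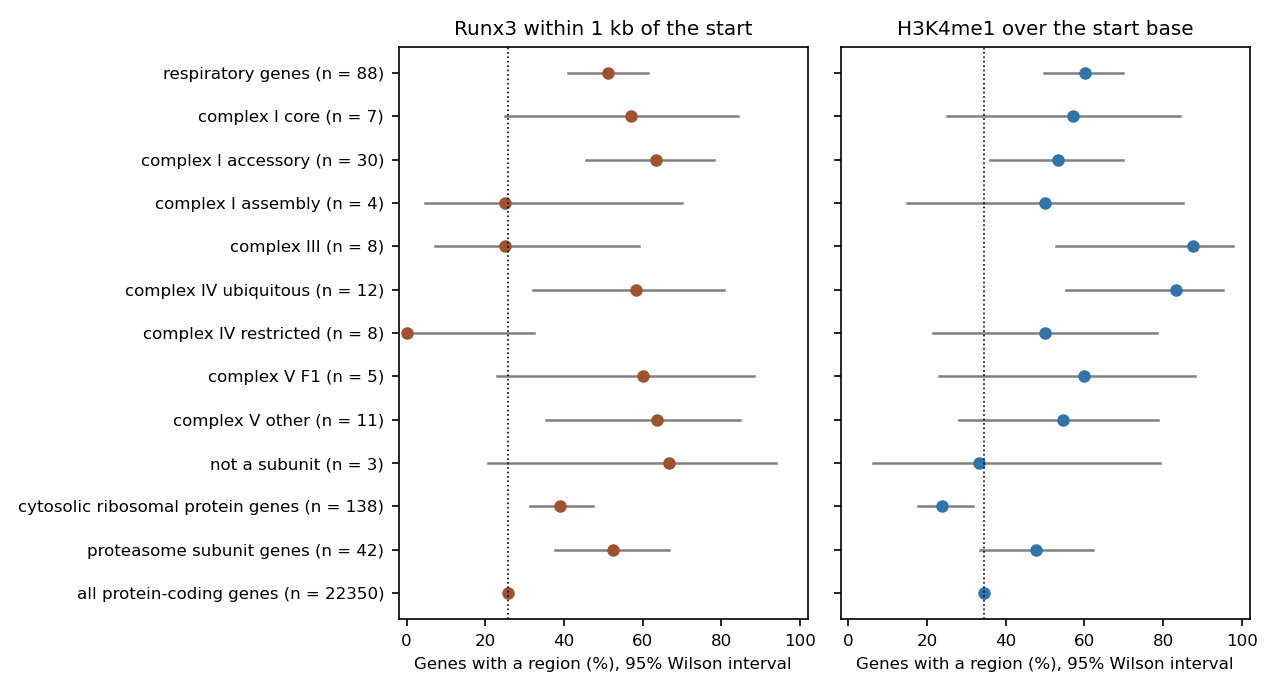
Share of genes with a Runx3 region within 1 kb of the start (left) and with an H3K4me1 region over the start base (right), as points with 95% Wilson intervals, for the respiratory genes, each role group and 3 comparison groups, with the share of all protein-coding genes as a dotted line. The restricted isoforms are at 0 of 8 for Runx3 (up to 32.4%), below the intervals of complex I accessory (from 45.5%) and other complex V genes (from 35.4%), while most other role groups overlap. None of the 8 has a CpG-rich start, and the groups are not matched for this.

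Of the 3 records that are not subunits, Cox4nb, a subunit of the endoplasmic reticulum membrane complex, shared its region with Cox4i1. Atp5sl, a factor of complex I assembly, had a region of 1055 bp centred 36 bp after its start.

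Other genes of the pathway had similar values. Of 39 genes for complex II, cytochrome c and c1, complex IV assembly, the citric acid cycle and mitochondrial biogenesis, 24 had Runx3 within 1 kb of the start (61.5%, interval 45.9 to 75.1%) and 20 had H3K4me1 over the start base (51.3%). The counts for Runx3 were 2 of 4 for complex II, 1 of 2 for the cytochromes, 6 of 10 for complex IV assembly, 9 of 12 for the citric acid cycle and 6 of 11 for biogenesis. For H3K4me1 within 1 kb of the start they were 4 of 4, 2 of 2, 10 of 10, 12 of 12 and 10 of 11 in the same order. Genes of other housekeeping complexes were set beside these. Proteasome subunit genes had Runx3 within 1 kb at 22 of 42 (52.4%, interval 37.7 to 66.6%) and H3K4me1 over the start at 20 (47.6%, interval 33.4 to 62.3%). Genes with a cytosolic ribosomal protein symbol, of which intronless copies were not separated, had Runx3 at 54 of 138 (39.1%, interval 31.4 to 47.5%) and H3K4me1 over the start at 33 (23.9%, interval 17.6 to 31.7%). For Runx3 the intervals of the respiratory, proteasome and ribosomal genes overlapped. For H3K4me1 the interval of the ribosomal genes lay below that of the respiratory genes (49.8 to 69.8%). A CpG-rich start was present in 53.6% of the ribosomal and 81% of the proteasome genes, and its part in these shares was not tested.

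Runx3 regions at respiratory genes were centred close to the start. In the 45 genes with a region within 1 kb, the median position of the midpoint was -33 bp, where negative values are upstream. The interquartile values ran from -97 to 85 bp and the extremes were -365 and 989 bp. The midpoint was within 250 bp of the start in 39 of the 45 (86.7%), against 67.1% of the 5770 protein-coding genes with such a region. The median absolute distance was 97 bp, against 148 bp. The width of these regions, with a median of 863 bp, was close to the 862 bp of all genes. Away from the start, Ndufs4 had 1 Runx3 region in an intron 83141 bp after it, and Ndufa10 had 1 at 4713 bp. At 3 genes the region lay within 1 kb without covering the 5′ end of the gene record. They were Cox6c (midpoint 989 bp after the start), Atp5f1 (703 bp) and Atp5j (632 bp). Counted from any annotated transcript start, 46 genes had a region within 1 kb and the same 46 had one over a start base. The regions of these 3 genes therefore covered another annotated start of the gene. The median midpoint was then -54 bp.

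Several regions were as close to a neighbouring gene as to the respiratory gene, so the gene to which a region belongs cannot be told apart from position. Another protein-coding gene started on the opposite strand within 1 kb at 27 of the 88 genes (30.7%), against 10.9% of all genes and 20.1% of genes with a CpG-rich start. That start could lie before the gene or, as with Tssk6 at Ndufa13, inside it. Of the 82 distinct Runx3 regions within 5 kb of respiratory gene records, 45 were nearest to the start of a respiratory gene and 37 to that of another gene. The 82 include all 10 regions of the long Atp5o record, of which 1 lay within 5 kb of its main transcript. The rest of these 10 are among the 37. When a region was counted only for the gene with the nearest start, 36 respiratory genes kept Runx3 within 1 kb (40.9%), and the difference from other genes was 18.7 points (interval 9.02 to 29.2). The region near Atp5j, coupling factor 6, was centred 68 bp from the start of Gabpa, which encodes an ETS-family activator of respiratory genes. The one near Ndufa7 was 30 bp from the start of Rps28, and that near Ndufb3 was 3 bp from the start of Fam126b.

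**Figure D3:**
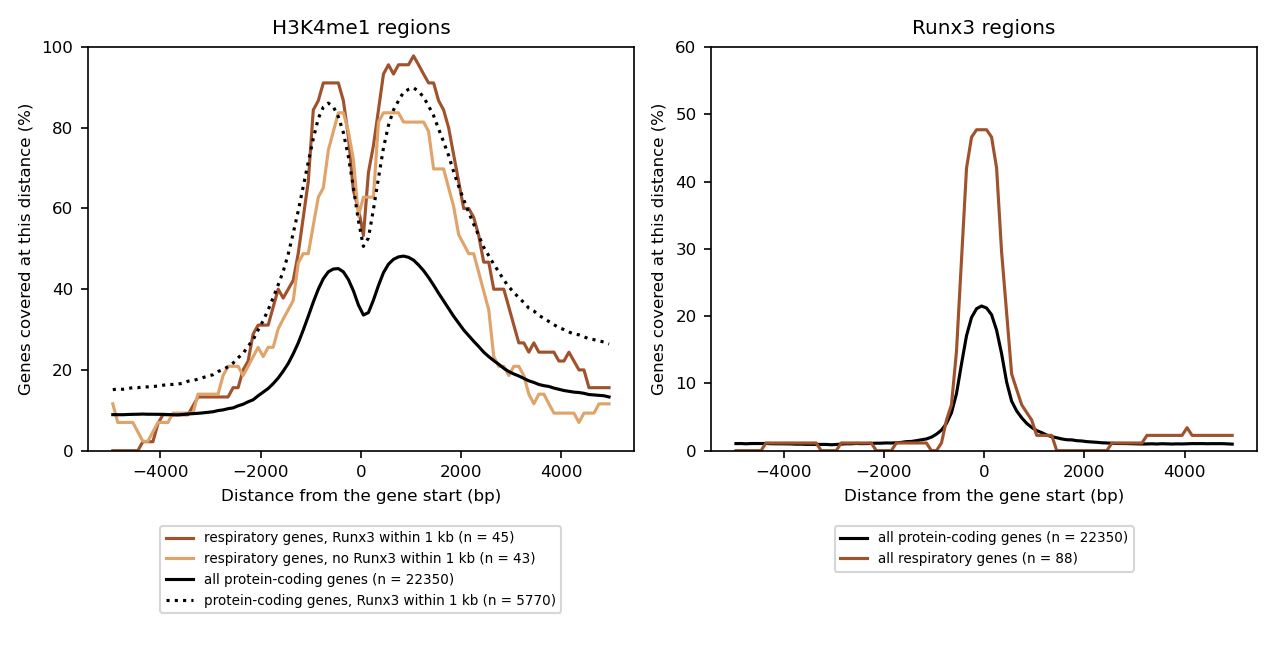
Percentage of genes covered by an H3K4me1 region (left) or a Runx3 region (right) at each distance from the gene start, in bins of 100 bp along the direction of transcription. H3K4me1 dips at the start of respiratory genes both with and without Runx3, to 53.3% and 58.1%, and Runx3 coverage of all respiratory genes is highest at the start, at 47.7%.

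H3K4me1 flanked the starts. Over all respiratory genes the coverage was 87.5% at 450 bp before the start, fell to 58% just after it and was 89.8% at 550 bp downstream. Over all protein-coding genes the highest value upstream was 45.1% (450 bp), the value just after the start 33.6% and the highest downstream 48.2% (850 bp). At respiratory genes with Runx3 within 1 kb the coverage reached 91.1% upstream (750 bp) and 97.8% downstream (1050 bp), with 53.3% at the start. At respiratory genes without Runx3 it reached 83.7% on both sides (450 bp), with 58.1% at the start. A start base free of H3K4me1 with a region on both sides was found at 27 respiratory genes (30.7%), against 14.5% of all genes. All 27 had a CpG-rich start, as did 3086 of the 3248 such genes overall. Among CpG-rich starts the shares were 40.9% (interval 29.9 to 53%) of respiratory genes and 31.2% of all genes. Of the respiratory genes with an opposite-strand start within 1 kb, 10 of 27 had H3K4me1 over the start base (37%, interval 21.5 to 55.8%), against 43 of 61 without one (70.5%, interval 58.1 to 80.4%). Of all protein-coding genes with an opposite-strand start within 1 kb, 45% had H3K4me1 over the start base, against 34.5% of all genes. The start base was covered in 27 of 45 genes with Runx3 within 1 kb (60%) and in 26 of 43 without (60.5%). Over all protein-coding genes the same shares were 53% with Runx3 and 28.1% without. At Ndufb7 and Cox7c, both with Runx3 over the start, H3K4me1 lay on the downstream side only. Of the 82 Runx3 regions, 80 overlapped an H3K4me1 region, and over the whole Runx3 list the share was 95.7%. The 2 exceptions were the region upstream of Cox7a1 and the one farthest downstream of Atp5d.

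The RUNX consensus was present in most Runx3 regions at respiratory starts, at about the frequency of other genes. It was found in 38 of 45 regions (84.4%, interval 71.2 to 92.3%), against 91.2% of the 5250 Runx3 regions within 1 kb of any protein-coding start. The 7 regions without a match were those at Atp5g1, Atp5j, Cox6b1, Ndufa8, Ndufb3, Ndufb5 and Ndufv3. In the central 200 bp the counts were 25 of 45 (55.6%) and 60% of all. In promoters, taken as 250 bp before to 50 bp after the start, the consensus was found at 40 of 88 respiratory genes (45.5%) and 45.3% of all genes. Among promoters with Runx3 over the start it was found in 24 of 42 (57.1%, interval 42.2 to 70.9%), against 59.3% of all such promoters, and among respiratory promoters without Runx3 within 1 kb in 16 of 43 (37.2%, interval 24.4 to 52.1%), against 41.4% of all promoters without Runx3. For TGTGGT alone, the promoter counts were 9 of 42 with Runx3 over the start (21.4%, interval 11.7 to 35.9%) and 2 of 43 without Runx3 within 1 kb (4.65%, interval 1.28 to 15.5%). Over all promoters these shares were 16.8% and 15.1%. The respiratory counts of the other forms were 11 of 42 and 9 of 43 for TGTGGC, 5 of 42 and 2 of 43 for the form TGCGGT, and 5 of 42 and 5 of 43 for the form TGCGGC. Over all promoters TGTGGC was found in 20.1% with Runx3 over the start and 17.8% without Runx3 within 1 kb. The form TGCGGT was found in 14.7% and 4.89%, and the form TGCGGC in 25.1% and 11.1%.

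The promoters were also searched, on both strands, for the sites of 5 other factors. GGGCGG, bound by SP1, was found at 32 of the 66 respiratory genes with a CpG-rich start (48.5%, interval 36.8 to 60.3%), against 72.8% of all genes with such a start. The median GC of CpG-rich starts was 57% at respiratory genes and 61.6% over all genes, and its part in the SP1 shares was not tested. GCGCANGCG, bound by nuclear respiratory factor 1 (NRF1), an activator of many respiratory genes, was found at 12 of the 66 (18.2%, interval 10.7 to 29.1%), against 15.9%. AGGAAGT or CGGAAGT, bound by ETS factors, was found at 15 (22.7%, interval 14.3 to 34.2%), against 19.3%. AANATGGCG, bound by YY1, was found at 8 (12.1%, interval 6.27 to 22.1%), against 5.4%. TGACTCA, bound by AP-1, was found at 3 (4.55%), against 2.4%. In the 45 Runx3 regions at respiratory starts the YY1 consensus was found in 15 (33.3%, interval 21.4 to 47.9%), against 10.8% of Runx3 regions at all starts. A match is a sequence and not evidence of occupancy.

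**Figure D4:**
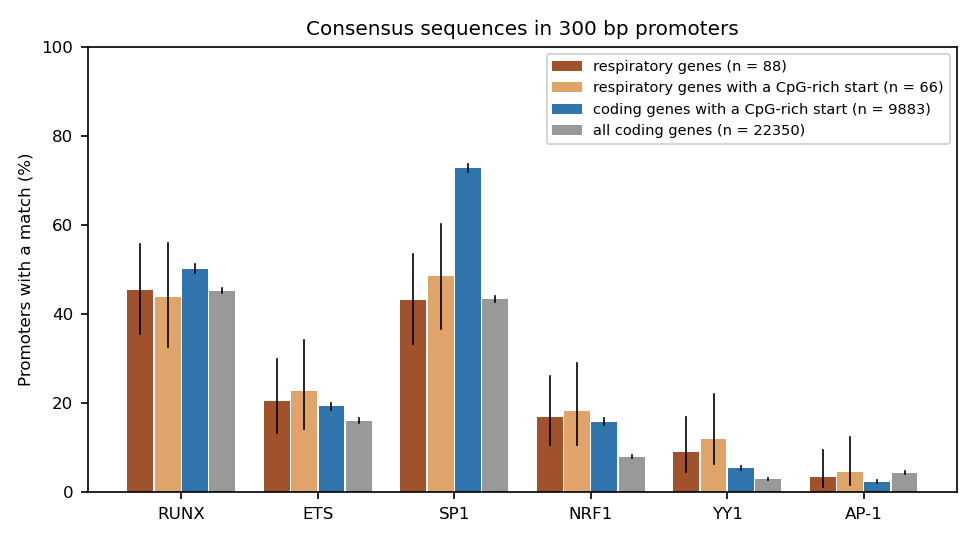
Share of 300 bp promoters that hold each consensus sequence on either strand, as bars from 0 with 95% Wilson intervals, for all 88 respiratory genes, the 66 with a CpG-rich start, all genes with a CpG-rich start and all protein-coding genes. SP1 is lower in CpG-rich respiratory promoters (48.5%) than in CpG-rich promoters overall (72.8%), while RUNX is near 45% in respiratory genes and all genes alike.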

How the data were processed

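ChIP-seq libraries of Runx3, H3K4me1 and NIS were made from resting splenic NK cells, fixed in 1% formaldehyde and sonicated to about 300 bp, per the labels. The authors aligned 40 bp reads to mm9 with ELAND (CASAVA 1.7 per the submitters' processing notes), kept unique alignments, joined their biological repeats and called regions with MACS against NIS. The labels call each sample the first IP experiment. The deposited files hold the other unit used, region starts and ends in bp, with no score, and NIS entered as the control of the caller.

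Gene starts were the 5′ ends of GENCODE gene records. A region counted when it shared at least 1 bp with a window. Intervals are 95% Wilson or, for differences, Newcombe. Python 3.11.15 and numpy 2.4.6 were used, and the overlap code was tested on simulated regions. Sequences came from the mm9 genome. RefSeq tables of another build were not used. With 1 list per antibody, no test was run. Members and lists were chosen with earlier results of these data known. Genes were named by rule (per role group the widest Runx3 region over a start, restricted isoforms with their counterparts, 3 or more Runx3 regions, neither list, the 3 widest H3K4me1 regions, and core or F1 genes without Runx3). Other genes named, among them Ndufs8, Ndufv1, Atp5j and those with a YY1 match, were chosen after their values were seen. Single results that name certain genes are not reported here, and those genes stay in the counts.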

Additional observations from a re-analysis of the deposited data

How the results depend on the processing

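Alternatives to the windows, the regions and the gene sets gave 65 values for 11 results. Of these values, 55 stayed close to the reported value and 10 moved. A count was called close when the larger value was at most 1.5 times the smaller. A difference or median was called close when it lay inside the interval of the reported one. Counts called close could still differ. H3K4me1 lay within 1 kb of 84 starts, but of 63 with the region midpoint inside the window and 70 with regions wider than the list median. It covered 53 start bases, and 64 genes with any transcript start. Most of the 65 values are counts of genes, regions or promoters, which have no direction that could change. The differences from other genes and the median distance of midpoints have a sign, and it did not change under any alternative. With only regions wider than the list median (825 bp for Runx3, 1801 bp for H3K4me1), Runx3 lay within 5 kb of 35 genes, within 1 kb of the start at 25 and over the start base at 25, H3K4me1 covered 30 start bases, and the difference from other genes within 1 kb was 13.6 points. With CpG-rich starts alone the differences were 5.24 points within 5 kb and 9.86 points within 1 kb. Among genes of 3.77 to 11.5 kb, the interquartile length of the respiratory genes, the 5 kb difference was 33.5 points. The RUNX consensus was found in 25 of the 45 regions when only the central 200 bp was searched, and in 84 of 88 promoters (97.1% of all protein-coding genes) when 1 kb on either side of the start was searched. An alternative added after seeing the data cut Atp5o to its main transcript and left out Atp5l-ps1 and the second Ndufb8 record, and gave 54 of 86 genes with Runx3 within 5 kb. No paired analysis was possible because each antibody had 1 list and no result came from a test. Leaving out a replicate was not possible for the same reason. Reads were joined before regions were called, so a region present in 1 repeat only cannot be recognised, and weak regions under the caller's threshold are not listed.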

Other observations

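The YY1 consensus AANATGGCG contains ATG, and at respiratory genes its ATG was usually a translation start. Of the 8 respiratory promoters with a match, the match held the annotated start codon of a protein-coding gene in 7 (87.5%, 95% Wilson interval 52.9 to 97.8%). Over all protein-coding genes this was so in 239 of 675 promoters with a match (35.4%, interval 31.9 to 39.1%). The start codon was that of the gene itself in, among others, Ndufs4, Ndufa7, Ndufa9 and Atp5sl, and that of the divergent gene Kctd2 at Atp5h. The pattern was chosen after its values were seen and was not tested. Runx3 covered the gene start in 6 of the 8 genes, against 303 of the 675 promoters with a match over all protein-coding genes. With or without a match, it covered 42 of the 88 respiratory starts, and a link was not tested.

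The stretches of 6 genes show the matches in capitals, read 5′ to 3′ along the gene, because the ATG of the capitals is the start codon in all of them but Ndufb11 (at Atp5h it lies on the opposite strand and reads as CAT).
Ndufs4 (accessory subunit), minus strand, chr13:115178253-115178281: cgtttgcctacaggAAGATGGCGgcggtc
Ndufa7 (accessory subunit), plus strand, chr17:33961557-33961585: cttcggagcggaaggAATATGGCGtccgc
Ndufa9 (accessory subunit), minus strand, chr6:126799115-126799143: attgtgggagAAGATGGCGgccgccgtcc
Ndufb11 (accessory subunit), minus strand, chrX:20194938-20194966: tcaccaacacAAAATGGCGacgagaagag
Atp5sl (complex I assembly), plus strand, chr7:26404449-26404477: gttacctggcAAGATGGCGgcgcccagag
Atp5h (d subunit of ATP synthase), minus strand, chr11:115281469-115281497: gctgcagctcCGCCATCTTgggccgccgc

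The first base of the match lay 26 bp after the gene start in Atp5sl, 29 bp in Ndufa9, 35 bp in Ndufs4 and 36 bp in Ndufa7. In Ndufb11 and Atp5h it lay upstream of the start.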
